A study of Drosophila melanogaster with 6 samples.

Results

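A set of 10 genes of Wnt signaling and planar cell polarity were followed through single-cell RNA sequencing of the *Drosophila* brain. They are the ligands *Wnt4* and *Wnt5*, the receptors *fz*, *fz2*, *drl* and *otk*, the polarity proteins *stan* and *Vang*, the transducer *dsh*, and the β-catenin gene *arm*. They were chosen by gene symbol, 10 of 16493 genes in the count tables, by a rule that uses no measured value, though earlier results of these data were known when they were chosen. Brains of control flies (w1118) and of flies carrying a deletion of *Appl*, the single fly gene of the amyloid precursor protein family (Appl[d] w[*], written Appl- here), were compared at 10 days of age. Each genotype had 3 libraries, and each library pooled the brains of 20 male and 20 female flies. Flies of both genotypes carry a mutant *white* allele. Appl[d] lacks the central part of the gene and keeps its first and last exons, so the remaining 3′ *Appl* reads do not show an intact transcript. Whether the stocks share the rest of their genetic background is not given in the sources used here, so an effect of the deletion and one of the background cannot be told apart.

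Wnt proteins are secreted signals that bind Frizzled receptors. In the canonical branch, Dishevelled (dsh) passes the signal on and Armadillo (arm), the fly β-catenin, escapes destruction and acts with a nuclear factor on target genes, while a second pool of Armadillo links cadherins to the cytoskeleton. In the planar polarity branch, Frizzled and Dishevelled act opposite Van Gogh (Vang), with the atypical cadherin Starry night (stan, also called Flamingo) on both sides of the contact. In the fly nervous system, Derailed (drl), a Ryk-family receptor of Wnt5, steers axons across the midline, Off-track (otk) is a kinase-like Wnt co-receptor, Wnt4 acts in layer targeting in the visual system, and Appl has been described as a modulator of the Vang and Wnt5 polarity pathway in axons of the mushroom body.

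Of 67362 barcodes, 25189 cells passed the filters, 11923 from control and 13266 from Appl- brains. Libraries held 3154 to 6461 cells and 9378856 to 21035736 unique molecular identifiers (UMIs, the molecules counted), with a median of 2312 to 3196 UMIs per cell. Control replicate 1 stood apart: 84.7% of its 29008 barcodes exceeded 10% mitochondrial counts, against 31.9% to 63.9% in the other libraries. In the kept cells, 74 barcodes occurred in more than 1 library. *Appl* itself fell in Appl- cells from 2146 ± 148 to 231 ± 25.5 normalized CPM (counts per 1000000 UMIs, here with scaled library sizes; mean ± SD, n = 3 libraries), and was called lower in each of the 28 clusters tested. The cells formed 40 clusters, of which 36 were named neuron-like from *elav*, *nSyb*, *brp*, *Syt1* and *para*. Kenyon cells, the intrinsic neurons of the mushroom body, were marked in clusters 7 and 11, and monoaminergic neurons in cluster 25. Clusters 4 and 27 are called T4/T5-like, after motion-detecting neurons. Cluster 4 raised 5 of the T4/T5 markers. Cluster 27 raised only 3, *TfAP-2*, *acj6* and *bi*, and not *SoxN*, *Sox102F*, *dac* or *grn*, so its name is tentative. Cluster 24 raised 7 of 8 glial markers but is left unnamed: none of these was among its 10 leading genes, which held the fat body gene *Tsf1*, and all 5 neuron markers were found in at least 50% of its cells. It is called the glial-marker cluster here. Other clusters are given by number and leading genes.

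Of the 10 genes, *dsh*, *Wnt5* and *arm* lie on X, and *Wnt4* and *drl* on 2L. *Vang*, *stan* and *otk* lie on 2R, and *fz* and *fz2* on 3L (BDGP6.54 annotation). The 3′ end of *arm* overlaps *mRpL16* on the other strand, and *fz*, *fz2*, *Wnt4* and *otk* overlap other annotated genes away from their own 3′ ends. Whether the counting used strand is not given in the sources used here, so *arm* and *mRpL16* reads may not be separable. Over all cells the 6 libraries together held 19597 UMIs of *fz*, 24074 of *fz2*, 21287 of *arm*, 7536 of *dsh*, 5168 of *Wnt4*, 5020 of *stan*, 4320 of *drl*, 3747 of *Wnt5*, 1603 of *Vang* and 1392 of *otk*. The last of these were the thinnest and had the least precise levels. Read capture depends on the gene, so these totals do not rank the genes by expression. Libraries of 1 genotype differed by more than counting noise in a chi-square test over genes, so each was kept as a replicate.

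Levels were compared first between cell types, as CPM of all UMIs in the cluster. The genes were left out of the clustering, but other genes of the same cells defined it, so these levels are a description without a test. The values below are means ± SD over 6 libraries in the 28 clusters where each library contributed 20 cells or more. *Wnt4*, *stan*, *fz* and *otk* reached between 6.77 and 33.2 times the level of their median cluster, and the other 6 genes at most 2.33 times.

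*Wnt4*, the ligand with the most uneven level, was highest in cluster 30, led by *vn*, *aop* and *sosie*, at 516 ± 294 CPM. Its libraries there ran from 118 CPM in control replicate 1 to 818 CPM in control replicate 2. Cluster 22 followed at 429 ± 184 CPM, then the monoaminergic cluster 25 at 227 ± 93.5 CPM, cluster 3 at 173 ± 63.1 CPM and cluster 2 at 167 ± 41.5 CPM, and each overlapped its neighbor in this order. At the other end, both Kenyon clusters were low, at 3.65 ± 2.79 CPM in cluster 7 and 6.68 ± 9.68 CPM in cluster 11. The highest mean was 33.2 times the median cluster. A smaller cluster with too few cells in 1 library, cluster 29, held 302 *Wnt4* UMIs, or 595 CPM with the libraries pooled. *Wnt10*, another Wnt ligand, was among the 10 leading genes of clusters 29 and 30, as was *Wnt4* itself.

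*Wnt5*, the ligand of Derailed, was spread far more evenly. Its highest level was 58.9 ± 5.87 CPM in cluster 1 and its lowest 21.97 ± 12.6 CPM in cluster 14, a 2.68-fold span, and every cluster overlapped the next in the order. The Kenyon clusters stood below the median cluster of 42.0 CPM, at 26.9 ± 4.69 CPM in cluster 7 and 32.4 ± 9.16 CPM in cluster 11.

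*fz*, which encodes a receptor shared by the canonical and polarity branches, was high in both Kenyon clusters and in cluster 30. Cluster 30 held 947 ± 174 CPM, Kenyon cluster 7 held 728 ± 136 CPM and Kenyon cluster 11 held 721 ± 114 CPM. These clusters overlapped one another, but their lowest library, 522 CPM, was above the highest library of the next cluster, 373 CPM in cluster 3. The lowest levels were 27.3 ± 17.4 CPM in cluster 19, where the medulla marker genes *bsh* and *hth* were raised, and 31.7 ± 32.8 CPM in cluster 21. Cluster 34, led by *opa* and the clock gene *tim*, was too small for the order but held 466 CPM of *fz* when its libraries were pooled.

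*fz2*, the second Frizzled receptor, had another order. It was highest in cluster 3 (led by *CG11085*, *DIP-zeta* and *Sox102F*) at 529 ± 115.2 CPM, in cluster 19 at 484 ± 137 CPM and in T4/T5-like cluster 4 at 403 ± 111 CPM. Among clusters too small for the order, pooled *fz2* levels ran from 39.1 CPM in cluster 39 (6 UMIs) to 579 CPM in cluster 29. Kenyon clusters 7 and 11 were near the bottom, at 167 ± 40.4 and 150 ± 50.4 CPM. Cluster 19 was thus the lowest for *fz* and near the highest for *fz2*, and the Kenyon clusters the reverse. Over 37 clusters of at least 100 cells, the Pearson correlation of *fz* and *fz2* levels on the log2(CPM + 1) scale was 0.09. Over the 45 pairs of the 10 genes it ran from -0.29 (*fz* with *stan*) to 0.61 (*Vang* with *dsh*). The points share libraries and depth, and the *Vang* and *dsh* value was 0.59 in control libraries and -0.18 in Appl- libraries.

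*drl*, the Ryk-family receptor, was highest in cluster 19 at 105 ± 31.2 CPM and in cluster 15, led by *beat-Vc*, *run* and *DIP-gamma*, at 84.1 ± 21.0 CPM. It was lowest in cluster 30, with 5 UMIs in 242 cells. *otk* was highest in cluster 17, led by *vvl*, at 89.8 ± 66.3 CPM, with a range of 11.9 to 183 CPM over the libraries. The next clusters were 26 at 52.7 ± 31.7 CPM and 13 at 47.5 ± 1.26 CPM. T4/T5-like cluster 27 held 1 *otk* UMI in 277 cells, and T4/T5-like cluster 4 stood at 3.34 ± 4.50 CPM.

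*stan*, the atypical cadherin of the polarity complex, was the gene most concentrated in 1 cluster. Cluster 21, led by *RluA-1*, *Drgx* and *CG17193*, held 591 ± 101 CPM, and it was the highest cluster in 6 of 6 libraries. Its lowest library, 400 CPM in control replicate 1, was above the highest library of cluster 22, which followed at 199 ± 67.9 CPM. Cluster 19 stood at 167 ± 37.0 CPM. Among clusters too small for the order, cluster 32 held 346 CPM and cluster 29 held 250 CPM of *stan* with the libraries pooled. Kenyon cluster 7 was the lowest, at 5.41 ± 4.84 CPM from 43 UMIs in 1111 cells, and Kenyon cluster 11 was next at 14.3 ± 5.34 CPM. Cluster 34 held 0 *stan* and 0 *Wnt4* UMIs of 450489, which allows up to 6.66 CPM of each (3 counts; counting error only). Cluster 21 was thus among the lowest for *fz* and the highest for *stan*, and Kenyon cluster 7 the reverse.

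*Vang*, which acts opposite Frizzled, showed no such concentration. It ran from 11.7 ± 11.4 CPM in cluster 14 to 40.4 ± 15.6 CPM in cluster 30, with the clusters overlapping down the order. *dsh* ran from 61.8 ± 33.2 CPM in the glial-marker cluster 24 to 142 ± 54.4 CPM in cluster 12. *arm* ran from 153 ± 22.9 CPM in cluster 15 to 319 ± 16.7 CPM in cluster 1, a 2.08-fold span. Among clusters too small for the order, pooled *arm* levels ran from 125 CPM in cluster 32 to 420 CPM in cluster 29. No library had its highest *dsh* level in the cluster with the highest mean.

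**Figure D1:**
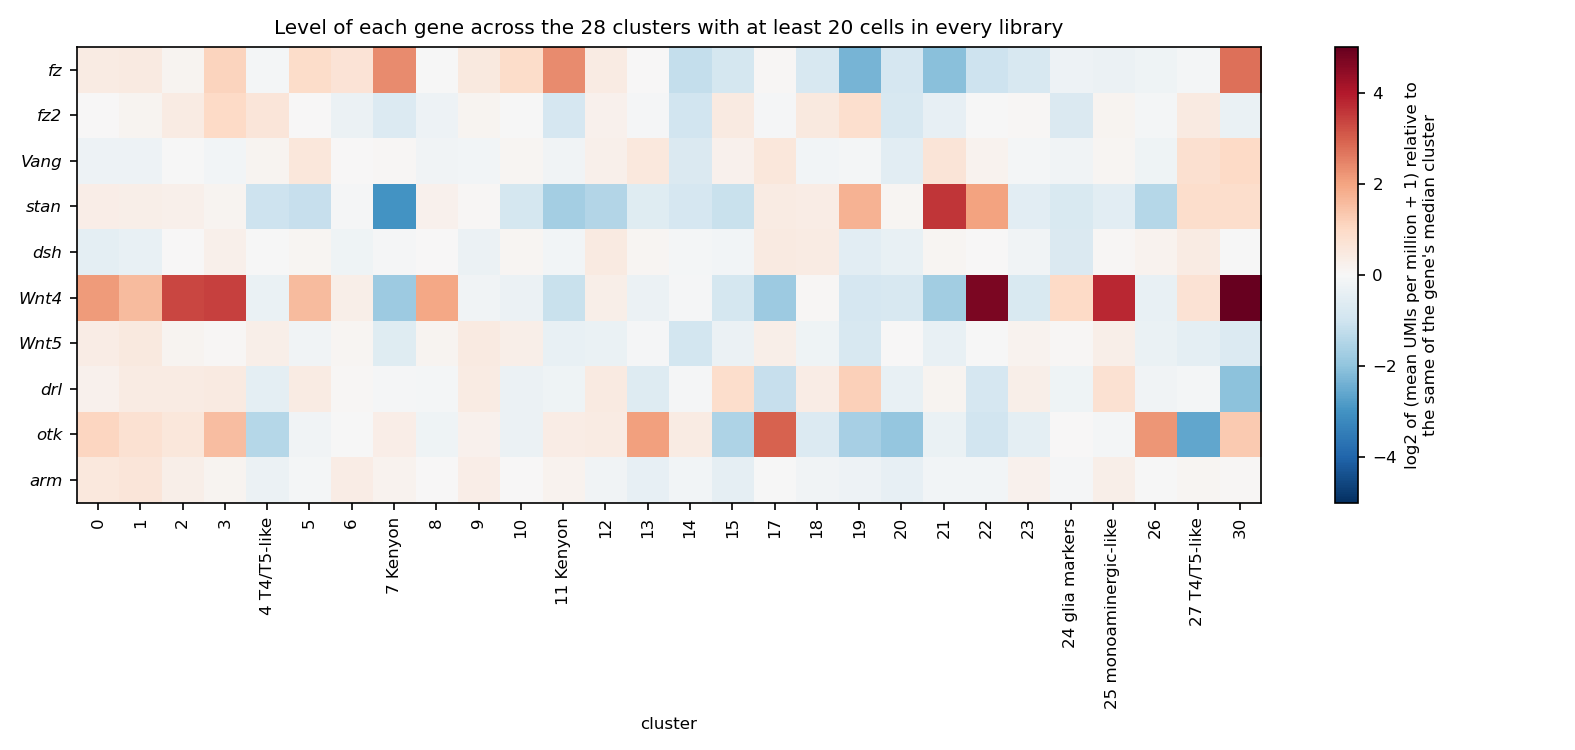
Level of each of the 10 genes (rows) in the 28 clusters with at least 20 cells in every library (columns), as the log2 ratio of the mean CPM + 1 to that of the gene's median cluster. *fz* was high and *stan* low in Kenyon clusters 7 and 11, *stan* was highest in cluster 21, *Wnt4* was highest in clusters 30 and 22, and *Wnt5*, *dsh*, *Vang* and *arm* varied little.

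For each gene, the genes whose levels were most alike across the 37 clusters were listed. For *fz* they were *rut* (r = 0.68), *Plc21C* (r = 0.67) and *Ror* (r = 0.65). *rut*, the adenylyl cyclase of olfactory learning, is a Kenyon cell marker and *Ror* is a Wnt-binding receptor. For *otk* the most alike gene was *otk2* (r = 0.70), its neighboring paralog. For *stan* they were *Leash*, *frj* and *phtf* (r = 0.64 to 0.66), for *drl* *shep*, *CG6763* and *PCNA2* (r = 0.61 to 0.68), and for *arm* *tok*, *ZnT33D* and *lncRNA:CR43264* (r = 0.63 to 0.66). *CG14879* and *Kmn2* were among those of *Wnt4* (r = 0.60 and 0.59). For *fz2* they were *Dyrk3*, *sno* and *Acn* (r = 0.71 to 0.74), and for *Wnt5* *Alk*, *dpr14* and *nAChRbeta1* (r = 0.77 to 0.79). For *Vang* they were *CG6841*, *Lam* and *CG31111* (r = 0.79 to 0.81), and for *dsh* *CG1737*, *CG32850* and *MED21* (r = 0.86 to 0.87). Several of these did not repeat between genotypes: *dsh* with *MED21* gave 0.81 in control and -0.21 in Appl- libraries, and *Wnt5* with *dpr14* gave 0.79 and 0.13, whereas *fz* with *Ror* gave 0.55 and 0.67.

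Transmitter classes were compared next, within libraries. Of the 24223 neuron-like cells, 9583 carried UMIs only of the cholinergic markers (*VAChT*, *ChAT*), 2816 only of the glutamatergic marker (*VGlut*) and 2489 only of the GABAergic markers (*Gad1*, *VGAT*). Another 7459 carried markers of several classes and 1876 of none, and these were left out. Of the 10 genes, 4 were called lower in at least 1 other class than in cholinergic cells, and 0 were called higher (edgeR quasi-likelihood test with library as a term, a call needs an adjusted p under 0.05 and a log2 change of 0.322 or more). The background was high: 12.2% of 6256 genes were called between glutamatergic and cholinergic cells (6.71% lower in glutamatergic), 16.2% between GABAergic and cholinergic cells (7.32% lower in GABAergic), and 7.08% between GABAergic and glutamatergic cells.

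*Wnt4* differed most. Its cholinergic level had a median of 89.2 CPM (67.0 to 101 over 6 libraries), its glutamatergic level a median of 37.4 CPM (8.31 to 46.2) and its GABAergic level a median of 23.1 CPM (3.82 to 44.5). The cholinergic and other libraries did not overlap. The log2 difference from cholinergic cells was -1.38 ± 0.24 (SE, adjusted p = 0.000191) in glutamatergic and -1.86 ± 0.26 (adjusted p = 8.25e-06) in GABAergic cells, lower in 6 of 6 libraries each (edgeR). *stan* had a median of 62.2 CPM (57.6 to 76.5) in cholinergic, 47.4 CPM (30.2 to 54.1) in glutamatergic and 40.5 CPM (18.5 to 55.1) in GABAergic cells. Here too no library of the other classes reached the lowest cholinergic one. Its differences were -0.52 ± 0.13 (adjusted p = 0.00571) and -0.66 ± 0.13 (adjusted p = 0.000593) by edgeR.

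*fz* had a median of 268 CPM (210 to 318) in cholinergic, 190 CPM (171 to 214) in glutamatergic and 182 CPM (167 to 196) in GABAergic cells. The cholinergic libraries overlapped the glutamatergic ones and stayed above the GABAergic ones. The differences were -0.46 ± 0.08 (adjusted p = 0.000257) and -0.47 ± 0.08 (adjusted p = 0.000135; edgeR). Kenyon cells are cholinergic and high in *fz*, and without clusters 7 and 11 the *fz* differences were 0.04 (adjusted p = 0.795) and -0.02 (adjusted p = 0.842; edgeR). With those clusters left out, the *stan* differences were -0.71 and -0.84 and those of *Wnt4* -1.59 and -2.06, all still called. That comparison was added after the data were seen. After thinning each cell to 1000 UMIs the *fz* calls were lost too (-0.25, adjusted p = 0.0443, and -0.17, adjusted p = 0.197; edgeR).

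*otk* was called lower only in GABAergic cells, at -0.56 ± 0.18 (adjusted p = 0.0245; edgeR). It lost that call in DESeq2 (adjusted p = 0.0640) and without control replicate 2, control replicate 3, Appl- replicate 2 or Appl- replicate 3 (adjusted p = 0.0510 to 0.111), and without the 5% of cells with the most UMIs (-0.36, adjusted p = 0.170; edgeR). *fz2* was lower in both other classes in 6 of 6 libraries, at -0.27 ± 0.05 and -0.17 ± 0.05, with adjusted p of 0.000348 and 0.0109 (edgeR), and both were smaller than the change a call needs. Without the Kenyon clusters the first was -0.36 and was called (adjusted p = 1.01e-05; edgeR). The 95% intervals of the *arm* differences from cholinergic cells ran from -0.12 to 0.07 and from -0.11 to 0.09, and those of *Wnt5* from -0.27 to 0.10 and from -0.26 to 0.11. Between GABAergic and glutamatergic cells none of the 10 genes was called.

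**Figure D2:**
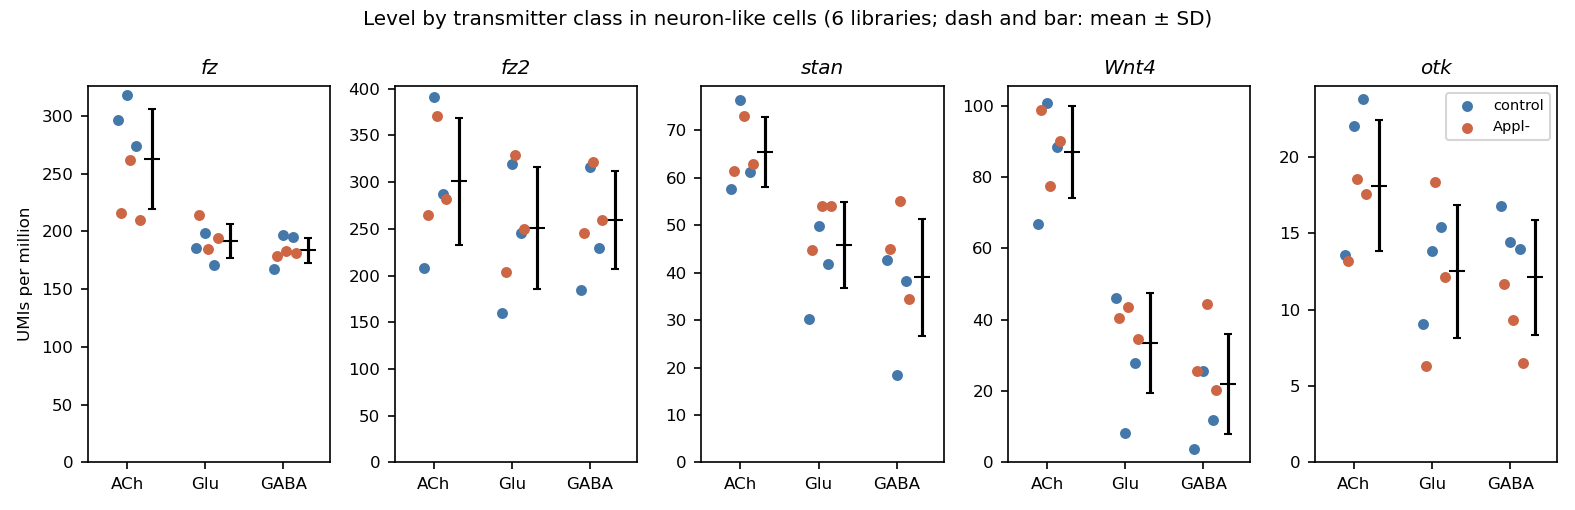
CPM of *fz*, *fz2*, *stan*, *Wnt4* and *otk* in neuron-like cells with markers only of the cholinergic (ACh), glutamatergic (Glu) or GABAergic (GABA) class, 1 point per library, with the mean ± SD of 6 libraries. The 6 cholinergic libraries lay above the other classes for *Wnt4* (67.0 to 101 CPM) and *stan* (57.6 to 76.5 CPM), and the classes overlapped for *fz2* and *otk*.

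The comparison of genotypes asks whether transcripts of this pathway change when Appl is lost. Over all cells, none of the 10 genes was called, against 5.96% of 8511 genes tested (edgeR quasi-likelihood test, Benjamini-Hochberg adjustment over all genes tested). At an unadjusted p under 0.05 there were 2, *Wnt4* and *Wnt5*, where 21.3% of all genes passed, and DESeq2 also called 0. In sums over mixed cells, fewer cells of a type and less RNA per cell cannot be told apart. The median log2 change of the 10 genes was 0.05, beside -0.0034 for all genes tested.

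Both ligands were higher in each Appl- library than in any control library. *Wnt4* stood at 45.5, 58.0 and 60.5 normalized CPM in control replicates 1 to 3, and at 74.4, 64.0 and 69.1 in Appl- replicates 1 to 3. Its log2 change was 0.34 ± 0.12 (SE, adjusted p = 0.172; edgeR). *Wnt5* stood at 38.1, 44.1 and 40.6 in control and at 47.2, 47.1 and 51.4 in Appl- libraries, a log2 change of 0.25 ± 0.09 (adjusted p = 0.168; edgeR). *arm*, at 236, 243 and 244 in control and 272, 261 and 257 in Appl- libraries, was the third gene without overlap, with a log2 change of 0.13 ± 0.07 (adjusted p = 0.385; edgeR). Such separation was common: 26.8% of all genes tested had it, and 3 against 3 libraries cannot go below an exact two-sided permutation p of 0.1. In neuron-like cells *Wnt4* changed by 0.29 ± 0.11 (adjusted p = 0.192) and *Wnt5* by 0.20 ± 0.09 (adjusted p = 0.287; edgeR).

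Among the receptors, *fz* stood at 248, 249 and 234 in control and at 206, 238 and 205 in Appl- libraries, so the groups overlapped, with a log2 change of -0.17 ± 0.09 (adjusted p = 0.341; edgeR). *fz2* stood at 205, 342 and 258 in control and at 265, 350 and 275 in Appl- libraries. Replicate 2 was the highest in both genotypes, and the Appl- library was above the control library of the same number in 3 of 3 pairs. The log2 change was 0.15 ± 0.20 (adjusted p = 0.748), and 0.17 with replicate number as a block (adjusted p = 0.248; edgeR). *drl* (56.8, 53.7 and 42.2 in control, 53.3, 51.0 and 48.0 in Appl- libraries) gave -0.0037 ± 0.12, and *otk* (13.9, 18.3 and 20.1, then 13.1, 17.6 and 16.2) gave -0.15 ± 0.17.

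The polarity genes and transducers moved little. *stan* stood at 52.0, 62.9 and 56.3 in control and at 59.9, 65.9 and 58.1 in Appl- libraries, a log2 change of 0.11 ± 0.10. *Vang*, at 19.1, 18.04 and 20.0 against 19.7, 18.8 and 18.1, gave -0.02 ± 0.09, and its 95% interval ran from -0.20 to 0.17. *dsh* spread the most within Appl- libraries (109, 69.8 and 88.7, against 81.7, 94.1 and 106 in control), and its interval of -0.41 to 0.26 does not exclude a fall of the size a call needs. In neuron-like cells, 0 of the 10 genes were called by edgeR or DESeq2, 1 (*Wnt4*) had an unadjusted p under 0.05, beside 6.15% and 20.0% of 8212 genes. The lowest adjusted p of any of the 10 genes there, over all settings tried, was 0.0692 for *fz* with replicate number as a block.

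**Figure D3:**
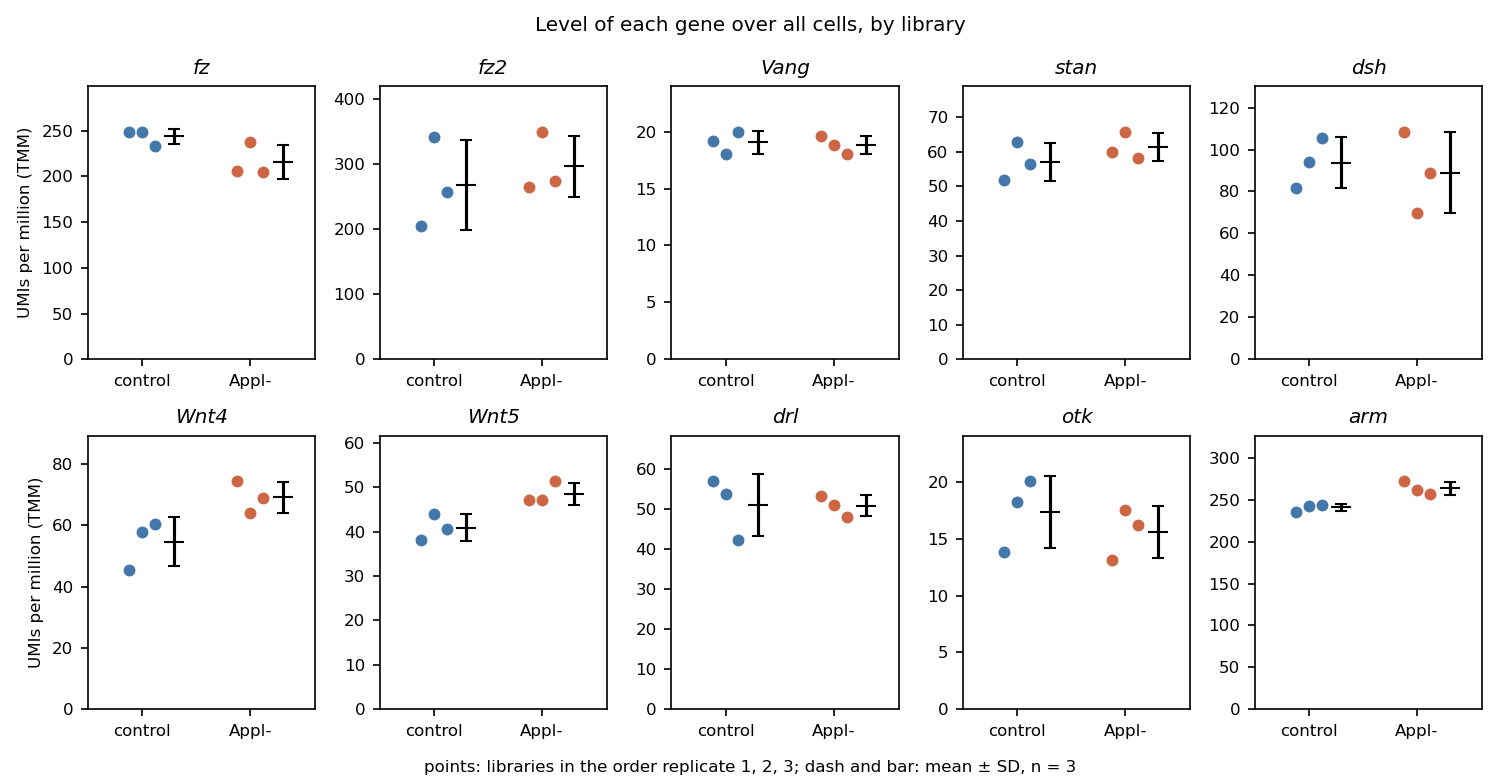
Normalized CPM of each gene over all cells, 1 point per library, with the mean ± SD of 3 libraries per genotype. *Wnt4*, *Wnt5* and *arm* did not overlap between genotypes, none of the 10 genes passed the adjusted threshold, and *fz2* was highest in replicate 2 of both genotypes (342 and 350).

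Markers of other cells differed between genotypes in these sums. Over all cells the 8 hemocyte markers summed to 122 to 267 CPM in control and 58.2 to 72.9 CPM in Appl- libraries, with each marker lower on average in Appl-. The 8 glial markers summed to 334 to 594 CPM and 283 to 368 CPM, and the 8 Kenyon cell markers to 5114 to 5866 CPM and 4363 to 5243 CPM, again each lower on average in Appl-. The part of these in the values above was not tested.

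In the 302 cells of the glial-marker cluster, 4 of the 10 genes passed the filter on low counts (*fz*, *fz2*, *dsh* and *arm*) and none was called (edgeR and DESeq2), where 0.755% of 2384 genes were. *fz* stood at 143, 184 and 159 normalized CPM in control and at 77.7, 120 and 113 in Appl- libraries, without overlap, a log2 change of -0.64 ± 0.33 (adjusted p = 0.493; edgeR). Of the 2384 genes tested there, 15.2% had such separation and 11.6% had an unadjusted p under 0.05 (edgeR). *dsh* had the lowest unadjusted p there, 0.0492, with a log2 change of -1.18 ± 0.53 (adjusted p = 0.428; edgeR). In the test of the genotype effect in this cluster minus that in neurons, 0 of the 10 genes were called (edgeR), where 1.36% of 8017 genes were. At an unadjusted p under 0.05 there was 1, *dsh*, at -1.12 (95% interval -2.15 to -0.10), where 7.7% of all genes passed. The intervals of thinner genes were wide, from -2.40 to 1.54 for *otk* and from -1.22 to 2.21 for *Vang*. No other tool was run for this contrast.

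Within clusters, the 10 genes gave 169 tests over 28 clusters, since a gene was tested only where its counts passed the filter. Of these, 3 were called, 1.78% of the tests, against 1.99% of 91947 tests of all genes, and p-values were adjusted within a cluster and not between clusters. At an unadjusted p under 0.05 there were 20, or 11.8%, against 11.2% of all tests. The share of the 10 genes was thus close to that of genes in general. Genes without overlap between genotypes were not counted in the other clusters or in Kenyon cells as a whole. Non-overlap there has no share of all genes beside it. The calls were *fz* in Kenyon cluster 7, *fz2* in cluster 15 and *Wnt4* in cluster 3. With replicate number as a block, the 169 tests gave 3 calls higher and 1 lower, beside 4.23% of all tests called.

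In Kenyon cluster 7, *fz* stood at 784, 890 and 858 CPM in control and at 609, 670 and 559 CPM in Appl- libraries, and the groups did not overlap. The log2 change was -0.49 ± 0.12 (SE, adjusted p = 0.0182; edgeR), where 5.34% of 4983 genes were called. The call was lost without control replicate 2, control replicate 3, Appl- replicate 1 or Appl- replicate 3 (adjusted p = 0.0550 to 0.156) and after thinning each cell to 1000 UMIs (log2 change -0.52, adjusted p = 0.0899; edgeR). The 8 Kenyon cell markers summed to 20970 to 26300 CPM in control and 21390 to 24470 CPM in Appl- libraries there, so they overlapped, and the 8 hemocyte markers, of which *He* and *NimC1* were at 0, to 126 to 208 CPM and 86.8 to 98.0 CPM, whose part was not tested. Cluster 7 held 357, 138 and 137 control and 118, 258 and 103 Appl- cells. At Leiden resolution 2, 76.7% of them fell in 1 finer Kenyon cell-like cluster. That finer cluster held 287, 114 and 106 control and 87, 183 and 75 Appl- cells, and the part of this split in the *fz* change was not tested. In Kenyon cluster 11, *fz* stood at 703, 817 and 842 CPM in control and at 522, 699 and 743 CPM in Appl- libraries, which overlapped. Other genes of the pathway called in cluster 7 were *fz4*, another Frizzled receptor, at 1.48 ± 0.37 (adjusted p = 0.0229), *dnt*, a Ryk-family receptor related to *drl*, at 1.23 ± 0.32 (adjusted p = 0.0251), and *pan*, the TCF factor that works with Armadillo, at 0.46 ± 0.13 (adjusted p = 0.0467; edgeR). With replicate number as a block, *Frl* (0.47, adjusted p = 0.0182) and *Abl* (0.41, adjusted p = 0.0103) were also called higher and *dally* lower (-1.04, adjusted p = 0.00289; edgeR). Over all clusters, 4.23% of the tests of all genes were called with the block. The 3′ end of *fz4* overlaps *CG8300* on the other strand.

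Kenyon cells as a whole were set against other neurons in 1 fit. *fz* stood at 773, 878 and 854 CPM in control and 576, 678 and 618 CPM in Appl- Kenyon cells, without overlap, and at 173, 196 and 190 against 172, 189 and 169 CPM in other neurons, which overlapped. The difference of the genotype effects was -0.38 ± 0.09 on the log2 scale (95% interval -0.55 to -0.20), and its adjusted p of 0.0552 missed the threshold (edgeR). It was called without control replicate 1, at -0.38 (adjusted p = 0.00646). For *fz2* the difference was -0.45 ± 0.13 (adjusted p = 0.113), from 152, 238 and 147 CPM in control and 141, 174 and 118 CPM in Appl- Kenyon cells, and it was called without control replicate 3 (-0.54, adjusted p = 0.0436; edgeR). Both fits without 1 library are named because they crossed the threshold, and the fit on all libraries called neither gene. The count of all genes called also varied without 1 library, as given at the end. Thus 0 of the 10 genes were called and 2 had an unadjusted p under 0.05, while 1.37% of 7720 genes were called and 848 of them had an unadjusted p under 0.05. No other tool was run for this contrast.

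*fz2* rose in cluster 15, whose cells had high levels of the GABAergic marker *Gad1*. It stood at 176, 354 and 243 CPM in control and at 486, 475 and 457 CPM in Appl- libraries, without overlap. The log2 change was 0.90 ± 0.21 (adjusted p = 0.0179; edgeR), where 2.93% of 2700 genes were called. The call was lost without any 1 of the 3 Appl- libraries (adjusted p = 0.107 to 0.116), without the 5% of cells with the most UMIs (log2 change 0.80, adjusted p = 0.0711) and after thinning (0.66, adjusted p = 0.332; edgeR). The 8 glial markers summed to 262 to 508 CPM in control and 170 to 221 CPM in Appl- libraries there, and their part was not tested. In T4/T5-like cluster 4, *fz2* stood at 278, 370 and 336 CPM in control and at 458, 596 and 382 CPM in Appl- libraries, also without overlap. Its log2 change of 0.58 ± 0.17 had an adjusted p of 0.0891, and 0.00119 with replicate number as a block (edgeR), the only call among the 10 genes that the block added. Over the 28 clusters *fz2* was above 0 in 17 and below 0 in 11.

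*Wnt4* rose in cluster 3. It stood at 116, 145 and 94.9 CPM in control and at 224, 213 and 248 CPM in Appl- libraries, without overlap. The log2 change was 0.96 ± 0.18 (adjusted p = 0.00776; edgeR), where 1.99% of 4476 genes were called. The call was lost without control replicate 3 (0.77, adjusted p = 0.0819), Appl- replicate 2 (0.99, adjusted p = 0.0534) or Appl- replicate 3 (0.90, adjusted p = 0.0555), and in the matching cluster of a coarser clustering (Leiden resolution 0.5) (0.64, adjusted p = 0.0523; edgeR). In cluster 3 the 8 glial markers summed to 237 to 390 CPM in control and 142 to 268 CPM in Appl- libraries, and the 8 hemocyte markers to 55.0 to 195 CPM and 14.1 to 48.5 CPM, of which *He* was at 0. The part of these marker levels was not tested. *Wnt4* was above 0 in 9 of the 11 clusters where it was tested, with a median log2 change of 0.44. In cluster 22 it stood at 247, 355 and 362 CPM in control and 665, 291 and 656 CPM in Appl- libraries, which overlapped (log2 change 0.66 ± 0.27, adjusted p = 0.388; edgeR). The study named *Wnt4* among its Wnt genes from these same samples, so that choice is no independent evidence of its direction.

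**Figure D4:**
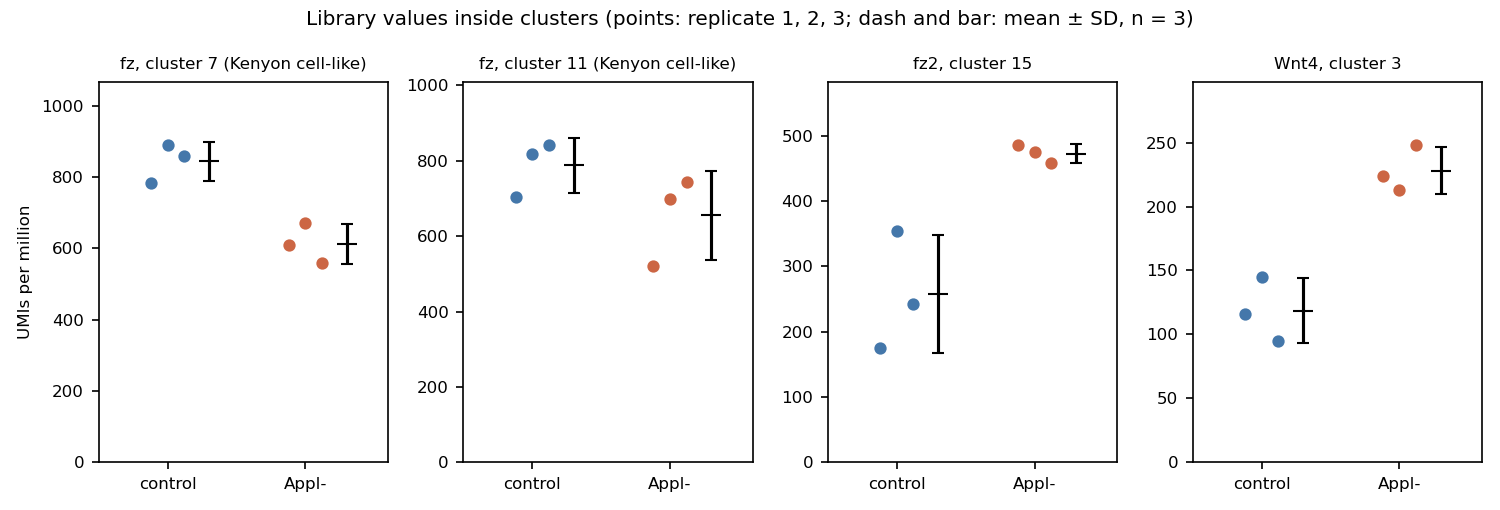
CPM per library of *fz* in Kenyon clusters 7 and 11, *fz2* in cluster 15 and *Wnt4* in cluster 3, with the mean ± SD of 3 libraries per genotype. The genotypes did not overlap in cluster 7 (559 to 670 in Appl-, 784 to 890 in control), cluster 15 or cluster 3, and overlapped in cluster 11.

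The other 7 genes had no call in any of the 28 clusters. *dsh* was below 0 in 19 of 27 clusters, with log2 changes from -1.18 to 0.37 and a lowest adjusted p of 0.202. *arm* was tested in 28 clusters and split 15 above and 13 below 0, within -0.34 to 0.36. *Wnt5* was above 0 in 9 of 11 clusters with a median of 0.14, *stan* in 8 of 12, *drl* in 5 of 14, *Vang* in 2 of 7 and *otk* in 1 of 6, and the lowest adjusted p among these was 0.404 (edgeR). *fz*, cluster 7 included, was below 0 in 17 of 25 clusters with a median of -0.17. Clusters of 1 library come from the same brains, so these counts are not independent.

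**Figure D5:**
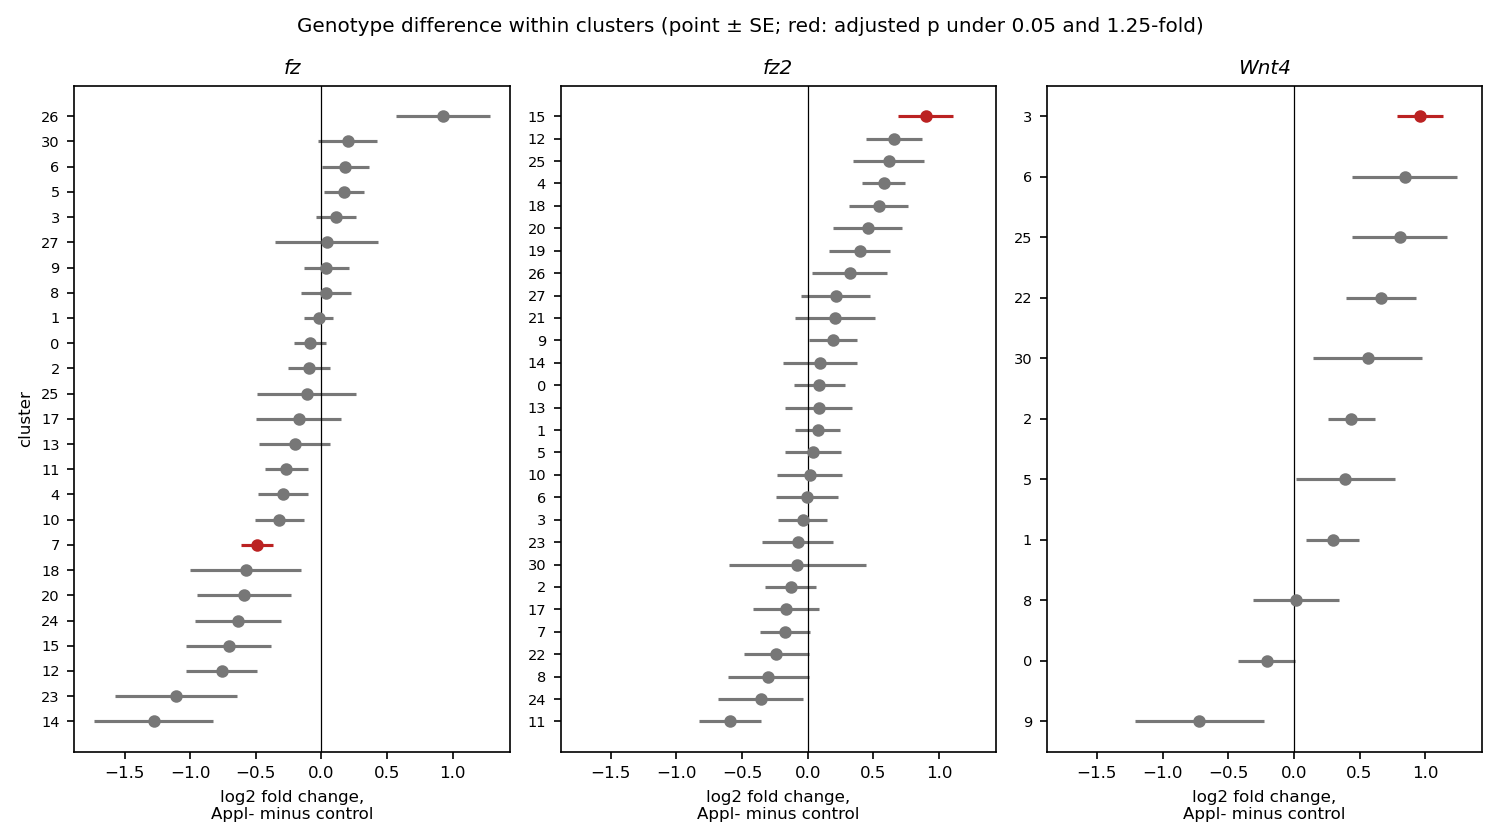
Log2 fold change of *fz*, *fz2* and *Wnt4* between Appl- and control libraries in each cluster where the gene was tested, with its SE. Red points passed the threshold: *fz* in cluster 7 (-0.49), *fz2* in cluster 15 (0.90) and *Wnt4* in cluster 3 (0.96).

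The wider pathway was read from 70 listed genes, the 10 included, of which 57 were tested over all cells. There 0 were called higher and 1 lower, where 3.02% and 2.94% of all genes were, and in neuron-like cells 1 higher and 1 lower, where 3.36% and 2.79% were. The gene called lower was *Rac1*, a small GTPase of cytoskeletal outgrowth, at 110, 104 and 113 normalized CPM in control and 87.5, 85.3 and 88.1 in Appl- libraries (log2 change -0.33 ± 0.07, adjusted p = 0.0464; edgeR). In neuron-like cells it gave -0.34 (adjusted p = 0.0382), and 2 of the 6 fits without 1 library kept that call (adjusted p up to 0.159; edgeR). Its call over all cells was lost without any 1 library (adjusted p = 0.0587 to 0.181; edgeR). The study listed *Rac1* under other signaling pathways from these same samples, so this call is no independent evidence. The gene called higher was *shg*, the E-cadherin that binds Armadillo, in neuron-like cells, at 12.3, 12.4 and 11.2 in control and 21.6, 15.9 and 20.2 in Appl- libraries (log2 change 0.68 ± 0.14, adjusted p = 0.0230; edgeR). It kept the call without 2 of the 6 libraries left out in turn (adjusted p up to 0.0993 without the others).

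By list, 0 of 3 tested Wnt ligands, 0 of 5 genes of Wnt secretion and handling, 0 of 5 Frizzled and *arr* receptors, 0 of 7 Ryk, Ror and otk receptors, 0 of 5 core polarity genes, 0 of 7 genes of the destruction complex, 0 of 8 nuclear effectors, 0 of 6 cadherin partners of *arm*, 0 of 1 Fat-Dachsous gene and 1 of 8 polarity effectors (*Rac1*) were called over all cells (edgeR), beside 5.96% of all genes. In the Ryk, Ror and otk list, *dnt* stood at 7.11, 8.33 and 7.48 in control and 12.2, 12.8 and 9.88 in Appl- libraries (log2 change 0.61 ± 0.15, adjusted p = 0.0578), and was called with replicate number as a block (0.61, adjusted p = 0.0414; edgeR). Its paralog *Drl-2* gave 0.27 ± 0.07 (adjusted p = 0.0751; edgeR). With the block, *CadN2*, an N-cadherin, was also called higher over all cells (0.38, adjusted p = 0.0179), and *Vinc*, the vinculin gene, lower (-1.57, adjusted p = 0.0156; edgeR). More of all genes were also called over all cells with the block than without it, as counted at the end. *Vinc* stood at 8.40, 6.31 and 2.49 in control and 2.55, 2.02 and 1.07 in Appl- libraries, which overlapped, beside the lower hemocyte and glial marker sums given above. In neuron-like cells *Vinc* averaged 1.51 normalized CPM in control and 1.27 in Appl- libraries. Its log2 change there was -0.22 ± 0.53 (adjusted p = 0.880; edgeR). Of the 5 Wnt genes the study named from these samples (*Frl*, *bsk*, *Ssdp*, *Galphao* and *Wnt4*), 0 were called over all cells or in neuron-like cells. The study took them from changes in its neuronal clusters, so sums over mixed cells are an unlike measure. Within clusters here, *Wnt4* was called in cluster 3. With the block, *Galphao* was called lower in 7 clusters and *Frl* higher in 1.

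Inside clusters, 7 of 825 tests of the listed genes beside the 10 were called (0.848%), all higher, and these genes were chosen for naming after their values were seen. With replicate number as a block there were 38 calls (4.61%, against 4.23% of all tests), 23 higher and 15 lower. They included *pan* higher in 7 clusters, *Abl* higher in 5, *Galphao*, a G protein subunit that the study named from these samples and so no independent evidence, lower in 7, *dally* higher in 3 and lower in 2, and *nmo* higher in 1 and lower in 2. In the fit without the block, besides the 3 in cluster 7, *Abl*, a tyrosine kinase of axon guidance, rose in T4/T5-like cluster 4 (0.57 ± 0.13, adjusted p = 0.0201) and in cluster 14 (1.00 ± 0.20, adjusted p = 0.00955; edgeR). *nmo*, a kinase that feeds back on Wnt signaling, rose in cluster 20 (1.00 ± 0.19, adjusted p = 0.00837), and *dally*, a glypican that binds Wnt proteins, rose in T4/T5-like cluster 27 (1.16 ± 0.25, adjusted p = 0.0211; edgeR). The study also listed *nmo* under another signaling pathway from these same samples, so its call is no independent evidence. The shares of all genes called were 2.75% in cluster 4, 1.6% in cluster 14, 1.71% in cluster 20 and 1.19% in cluster 27.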

How the data were processed

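Single-cell libraries were made with the 10x Chromium 3′ kit after trypsin dissociation. The authors ran Cell Ranger (6.0.0 in the file headers) and deposited UMI counts per gene and barcode. The genome build, annotation and use of strand are not given in the sources used here. Gene IDs were matched to BDGP6.54 (16447 of 16493, 99.7%), and 5571 transposable element features were left out of the gene tests.

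Barcodes needed 200 or more detected genes, and those above 10% mitochondrial counts were removed. The study removed low-gene cells at a limit not given in the sources used here. Cells were clustered without the 10 genes (scanpy 1.11.5, 2000 variable genes, 30 principal components, Leiden resolution 1). A cluster was called neuron-like where 3 or more neuron markers were each found in at least 50% of its cells. It also had to lack 3 raised markers of any non-neuronal type. A type name needed 3 or more markers at least 2-fold above the other cells. No other type could have more markers among the 10 leading genes. No doublet caller was run, and an alternative left out the 5% of cells with the most UMIs in each library.

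Raw counts were summed per library and cluster and tested with edgeR 4.0.16 (quasi-likelihood, TMM normalization, low counts filtered, adjusted p of 0.05 and a log2 change of at least 0.322, the study's fold threshold). Normalized CPM divides by TMM-scaled library sizes, and CPM within clusters and classes by total UMIs. Transmitter classes and interactions were fitted with library as a term. P-values in clusters were adjusted within each cluster. Libraries are pools of brains, so p-values measure the spread between pools. Intervals are 95%.

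The sample labels number the replicates and name no shared batch. Same-numbered libraries of the genotypes deviated together (correlations of 0.30, 0.248 and 0.372, against -0.256 to -0.0459 for other pairs). The pairing by number was thus read from these same data and is not given by the labels. The block with replicate number was run only as an alternative, and calls that need it rest on that pairing. Other alternatives were DESeq2 1.42.0, other scaling, no filter, other cell filters, other clusterings, thinning and leaving out each library. The tests were also run on simulated counts with known fold changes. These had less spread between libraries than was fitted here (biological coefficient of variation 0.21 over all cells, 0.17 in neuron-like cells, 0.31 in the glial-marker cluster). That run therefore does not give error rates for these data. The named genes were the 10 genes, listed pathway genes called over all cells or neurons, the 3 genes most alike in level to each, and *Appl*. The 10 genes and the lists were chosen with earlier results of these data known. A gene most alike to *Wnt4* and a leading gene of cluster 17 are not reported here.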

Additional observations from a re-analysis of the deposited data

How the results depend on the processing

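None of the 10 genes was called over all cells or in neuron-like cells under any alternative run. The count of all genes called over all cells (507) was 857 with DESeq2, 915 with the replicate block, 330 at a limit of 5% mitochondrial counts, 281 with cells thinned to 1000 UMIs and 159 to 605 without 1 library. In neuron-like cells (505) it was 1018 with the block, 257 thinned and 225 to 760 without 1 library. In the glial-marker cluster (18) it was 34 with DESeq2, 240 without a filter, 70 with the block, 0 at 5% mitochondrial counts, 8 thinned and 11 to 158 without 1 library. Over clusters (1832) it was 4948 without a filter, 3893 with the block, 701 at 5% mitochondrial counts, 633 thinned and 996 to 2609 without 1 library. The stricter cell filter and thinning also left fewer cells and clusters to test.

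Of the 10 genes, the 3 calls within clusters became 7 without a filter, 1 at 5% mitochondrial counts, 1 thinned and 0 to 3 without 1 library. The 7 transmitter calls became 4 thinned. The interaction of genotype with neurons against the glial-marker cluster gave 109 genes, and 51 to 214 without 1 library. That with Kenyon cells gave 106, then 263 without a filter and 62 to 311 without 1 library, with 0 to 1 of the 10 genes.

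Changes near 0 turned sign. Over all cells *drl* was 0.00082 without a filter, 0.0022 with the block and -0.13 to 0.085 without 1 library, and *Vang* 0.055 at 5% mitochondrial counts, 0.036 without the cells with the most UMIs and -0.062 to 0.016 without 1 library. Without 1 library *fz2* ran from -0.012 to 0.35 and *dsh* from -0.25 to 0.081. In neuron-like cells *Vang* was 0.019 at 5% mitochondrial counts and 0.010 without the cells with the most UMIs, and without 1 library *fz2* ran from -0.058 to 0.32, *stan* from -0.0053 to 0.13, *drl* from -0.19 to 0.024 and *dsh* from -0.28 to 0.039. The difference of *fz* between glutamatergic and cholinergic cells was 0.038 without the Kenyon clusters. The cause of these changes was not tested. Depth limited *otk* and *Vang* most, which passed the filter in 6 and 7 of 28 clusters.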
